A study of Mus musculus with 12 samples.

Results

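To describe how the lysosome of macrophages was set at the RNA level, the transcripts of 42 lysosomal genes were examined in mouse peritoneal macrophages, with and without bacterial lipopolysaccharide (LPS) and by Ythdf1 genotype. The genes were chosen by name as enzymes, membrane proteins, proton pump subunits and transcription factors of the lysosome, with earlier results of these data known, and the rule used no measured value. All 42 were found among the 16920 genes of the deposited count tables, and all passed the filter on low counts, which kept 12064 genes. They comprised 11 genes of cathepsins and legumain, 8 of glycosidases, 7 of lipid hydrolases, sulfatases and activators, 7 of membrane proteins, 6 of the vacuolar proton ATPase (V-ATPase) and 3 of transcription factors of the MiT/TFE family.

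The study had profiled macrophages from wild-type (WT) mice and from mice labelled as Ythdf1 knockouts (KO), which, per the paper, were made deficient with CRISPR/Cas9 and kept on a C57BL/6 background. Ythdf1 encodes a cytoplasmic protein that reads N6-methyladenosine in mRNA. The 4 groups, of 3 libraries each, were WT cells kept in PBS, WT cells given LPS at 1 µg/mL, KO-labelled cells kept in PBS and KO-labelled cells given LPS at the same dose, each for 6 h. The sources differ on how the cells were elicited, as starch broth is named in the record of the series and thioglycollate in the paper. The methods give 6 to 10 weeks as the general age of mice, and the labels give none for these libraries. The labels call the 3 libraries of a group biological replicates without naming the animals behind them.

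Lysosomes are acidic organelles in which macrophages degrade engulfed microbes, worn-out organelles and their own macromolecules. The V-ATPase pumps protons into the lumen, soluble hydrolases reach it from the Golgi by way of a phosphorylated mannose tag, and heavily glycosylated proteins line its membrane. TFEB, TFE3 and MITF, the MiT/TFE factors, bind E-box sequences in the promoters of many lysosomal genes, and the nutrient-sensing kinase complex mTORC1 holds TFEB and TFE3 in the cytoplasm by phosphorylating them.

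The E-boxes in the promoters of these genes are shown first, since the MiT/TFE factors are among the 42. Promoter sequence came from RefSeq (GRCm38.p6), from 250 bases before to 50 bases after each start of transcription. It was found for 35 of the 42 genes in 43 windows, and Ctsb, Ctsh, Asah1, Npc1, Atp6v0d2, Atp6v1b2 and Atp6v1h had no entry. The sequences searched were the CLEAR motif that TFEB is known for, its inner letters TCACGTGA and the E-box core CACGTG. Each reads the same on both strands, and each longer one contains the shorter ones. The CLEAR motif was in 0 of the 43 windows and in 0.326% of all 32851 promoter windows of the table. TCACGTGA was in 6 (14%) of the members' windows, against 0.974% of all windows and 1.86% of those of the genes tested. CACGTG was in 30.2% of the members' windows, against 7.15% and 9.92%.

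The 6 members with TCACGTGA were Ctsa, Ctsd, Gla, Mcoln1, Atp6v0d1 and Atp6v1a, and Lamp1 held 4 copies of CACGTG, the most of any member. These windows are printed because the calls of their genes are read against the E-boxes at the close, with the letters searched in capitals. They lie on GRCm38.p6 at chr2:164833758-164833787 on the plus strand for Ctsa, chr7:142387908-142387937 on the minus strand for Ctsd, chrX:134601215-134601244 and chrX:134601182-134601211 on the minus strand for Gla, and chr8:3500462-3500491 on the plus strand for Mcoln1. The others lie at chr8:105566050-105566079 on the minus strand for Atp6v0d1, chr16:44139373-44139402 on the minus strand for Atp6v1a, and chr8:13159096-13159125 and chr8:13159127-13159156 on the plus strand for Lamp1. Each is written from 5′ to 3′ on the strand of its gene.
Ctsa: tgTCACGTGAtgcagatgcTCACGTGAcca
Ctsd: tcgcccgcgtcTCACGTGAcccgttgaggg
Gla, distal: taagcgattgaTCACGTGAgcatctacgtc
Gla, proximal: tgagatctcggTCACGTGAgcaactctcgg
Mcoln1: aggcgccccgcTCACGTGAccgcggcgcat
Atp6v0d1: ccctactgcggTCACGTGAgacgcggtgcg
Atp6v1a: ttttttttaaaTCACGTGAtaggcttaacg
Lamp1, distal: atatCACGTGgtccagcgccCACGTGatgc
Lamp1, proximal: gactggCACGTGaccacatCACGTGcggaa
The match in Ctsd lay 99 bases before the start and that in Mcoln1 46 bases before it, whereas the match in Atp6v0d1 lay across it. A match of letters describes the sequence and does not show that a factor was bound.

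Values are given as CPM, counts relative to library sizes scaled by the trimmed mean of M values (TMM), which takes most genes as unchanged. Total counts lay between 21546274 and 22017005. Differences are log2 fold changes from 1 edgeR quasi-likelihood model of all genes and 12 libraries, with p-values adjusted over the 12064 genes and called under 0.05. Ythdf1 itself was not reduced by the KO label, so the genotype comparisons rest on the labels. Its means were 43.5 ± 1.54 CPM in WT PBS, 57.2 ± 1.53 in KO-labelled PBS, 201 ± 9.37 in WT LPS and 198 ± 6.94 in KO-labelled LPS libraries (SD, n = 3). Under PBS it was called higher by the KO label (log2 difference 0.40, adjusted p = 0.000133), and under LPS it was not called (-0.028, adjusted p = 0.724). Replicate 1 of WT LPS stood apart from replicates 2 and 3 (mean chi-square per gene 31.4 and 24.4, against 3.01 between those), KO LPS replicates 2 and 3 also differed from each other (15.9), and the other pairs of a group lay at 2.75 to 7.12. The calls between labels that changed without WT LPS replicate 1 are given with each comparison. Macrophage markers (10 of 10 tested) summed to 15121 to 17385 CPM over all libraries, with 1 higher and 2 lower by the KO label under PBS and 1 higher and 3 lower under LPS. Of 6 fibroblast markers 5 were tested, and all 5 were lower by the KO label under both treatments, with sums of 75.1 to 88.6 CPM in WT PBS, 32.9 to 46.2 in KO-labelled PBS, 119 to 132 in WT LPS and 57.0 to 69.5 in KO-labelled LPS libraries. Skeletal muscle markers summed to 17.8 to 23.7 CPM in WT PBS, 29.95 to 35.6 in WT LPS and 0.428 to 0.684 in KO-labelled LPS libraries. In KO-labelled PBS they summed to 16.1 and 20.4 CPM in replicates 1 and 2 and to 0.354 CPM in replicate 3, which stood apart, and no marker of either list was at 0 in all libraries. Mesothelial markers (6 of 6 tested) summed to 7.58 to 8.47 CPM in WT PBS, 3.76 to 5.92 in KO-labelled PBS, 8.12 to 9.17 in WT LPS and 6.37 to 7.52 in KO-labelled LPS libraries, with 2 lower by the KO label under PBS and 1 under LPS. T cell markers (4 of 7 tested, none of the 3 Cd3 genes among them) summed to 10.6 to 14.2 CPM in WT LPS and 5.09 to 5.88 in KO-labelled LPS libraries, where Lck alone was called lower, and both neutrophil markers tested of 8, S100a8 and Cxcr2, were higher by the KO label under LPS. The 1 mast cell marker tested was lower by the KO label under PBS (-1.39) and higher under LPS (1.54). Of 2 eosinophil markers tested 1 was lower under LPS, and of 2 dendritic cell markers tested 1 was lower under PBS. These lists summed to at most 3.72 CPM in any library. The part of these cells in the genotype differences was not tested, and in such bulk samples fewer cells of a type and less RNA per cell cannot be told apart.

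Lysosomal transcripts made up a large share of the RNA of these cells. As shares of library totals, the 42 genes held 12.8% to 13.3% in the 6 PBS libraries. They held 8.37% to 8.58% in WT LPS and 6.49% to 6.71% in KO-labelled LPS libraries. On the TMM scale WT showed no such fall, with summed CPM of 103708 to 104588 under PBS and 106268 to 106553 under LPS. By the KO label the sums were 97671 to 99451 CPM under PBS and 86209 to 88703 CPM under LPS. Psap, Ctsd and Ctsb together held 61.6% to 67.6% of the members' CPM, depending on the group. Per kilobase of transcript, Ctsd and Psap were the most abundant members in every group. In WT PBS, Ctsd stood at 10651 ± 46.5 and Psap at 10154 ± 157 CPM per kilobase (SD, n = 3), followed by Ctsb at 4137 ± 75.5 and Ctss at 3484 ± 143. Tfeb (34.99 CPM per kilobase) and Mitf (10.003) were among the least abundant, and Ctsf was the lowest at 0.798.

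**Figure D1:**
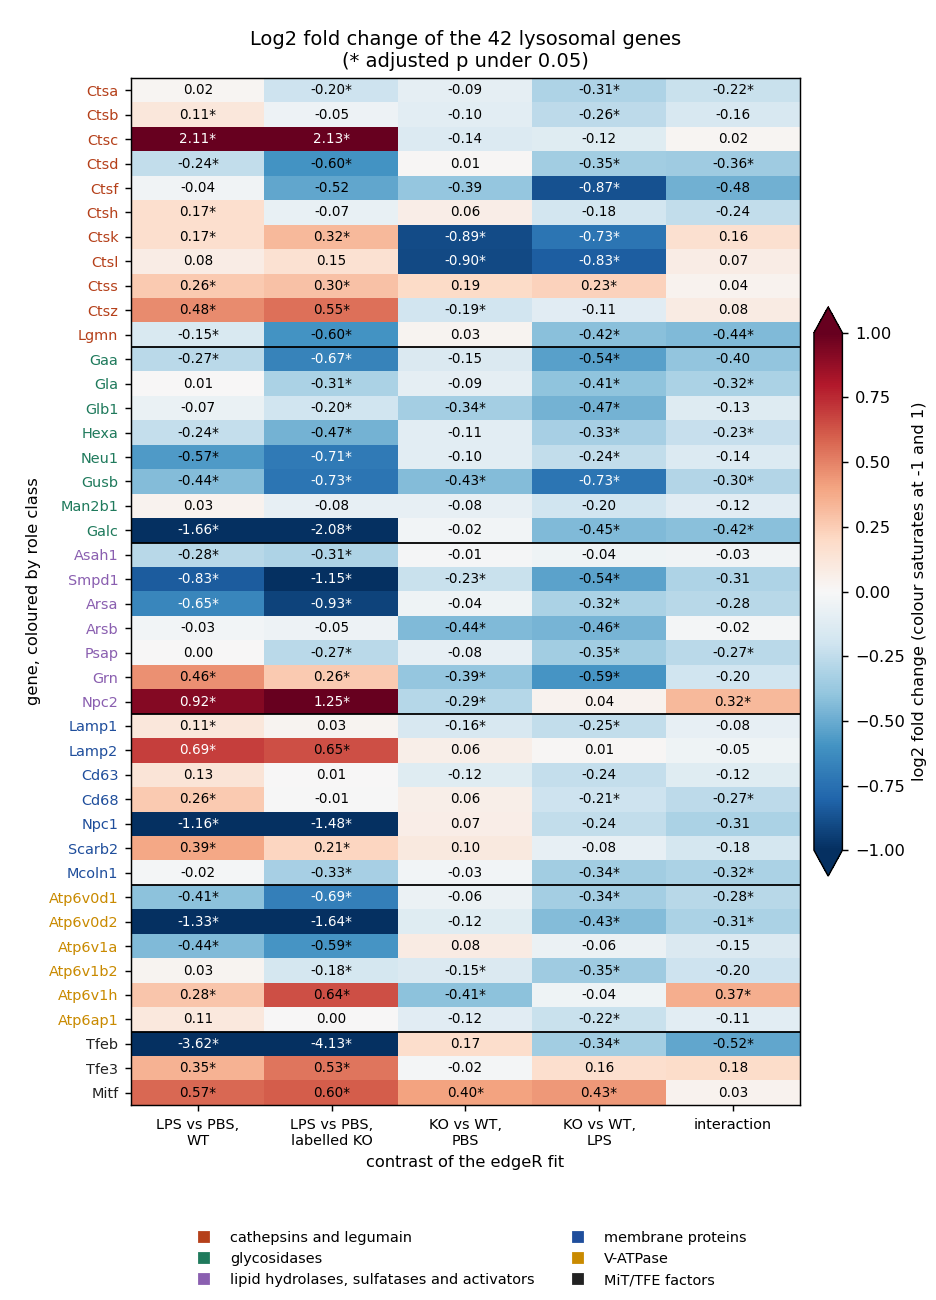
Heat map of the log2 fold changes of the 42 genes (rows, grouped and coloured by role) in the 5 contrasts (columns). Red is higher and blue lower, an asterisk marks an adjusted p under 0.05, and the column for KO against WT under LPS is blue for 37 of the 42 genes.

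LPS changed most of these transcripts, but the majority by little. In WT, 15 members rose and 15 fell (35.7% each), beside 36.5% and 40.2% of all genes tested (76.7% called in all). The median change of the members was 0.01 on the log2 scale beside -0.05 for all genes, and 31 of the 42 moved by less than 0.5. Only Ctsc rose by more than 1 log2 unit, beside 17.2% of all genes, and only Tfeb, Galc, Atp6v0d2 and Npc1 fell by more than that, beside 19.2%. No overlap between treatments was seen for 28 members, beside 78.2% of all genes. In the KO-labelled libraries 11 rose and 21 fell (26.2% and 50%), beside 38.8% and 41.1% of all genes (79.9% called in all), with a median of -0.19 beside -0.041. No overlap between treatments was seen for 34 members, beside 81.3% of all genes. Such joint calls were counted for the members only, without the share over all genes. Of the 42, 15 fell and 11 rose under both labels. A further 6 fell by the KO label without a call in WT, and 4 rose in WT without a call by the KO label. The interaction was called for 4 of these 6 (Ctsa, Gla, Psap and Mcoln1, not Glb1 and Atp6v1b2) and for 1 of these 4 (Cd68, not Ctsb, Ctsh and Lamp1). The WT rises of Ctsb, Ctsh and Lamp1 were lost in 13, 10 and 10 of 21 alternative fits.

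The direction of the smaller LPS changes depended on how the libraries were scaled. TMM factors were 1.26 to 1.31 in PBS and 0.744 to 0.808 in LPS libraries, and with library totals alone the median of all genes moved from -0.05 to -0.71 in WT and from -0.04 to -0.84 by the KO label. On that scale 2 members were higher and 38 lower in WT, and 2 higher and 40 lower by the KO label. Of all genes, 86.8% and 87.8% were called there, with 21.2% and 20.8% of those calls higher. With upper-quartile scaling the counts were 5 higher and 27 lower, and 7 higher and 32 lower. Of all genes, 80.1% and 82.1% were called by it, with 32.5% and 33.8% of those calls higher. Ctsc and Npc2 were the 2 members called higher by every scaling under either label. Of the falls, 14 of the 15 in WT and all 21 by the KO label were called by every scaling. The median of all genes was -0.36 and -0.40 with upper-quartile scaling and lower still with totals alone, so falls could hardly be lost there. Ranked among the changes of all genes tested, where percentile 50 is the middle gene, the smaller rises in WT lay at percentile 63.4 for Ctss, 63.5 for Cd68, 70.6 for Grn and 71.2 for Ctsz, and the fall of Ctsd at 42.2.

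**Figure D2:**
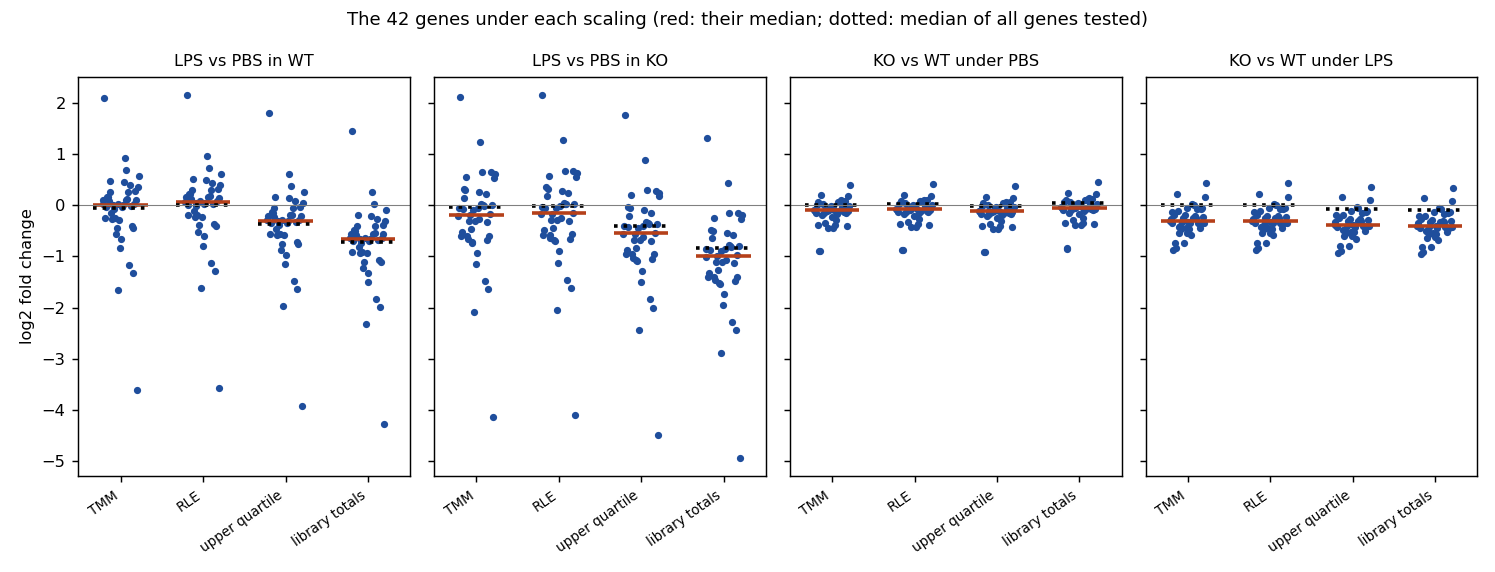
Log2 fold changes of the 42 genes (points) under 4 scalings of the libraries, in 4 contrasts, with the median of the members in red and that of all genes tested dotted. The 2 LPS contrasts slide down together with the median of all genes when totals alone are used, while the median of the members under LPS moves only from -0.31 to -0.40 between the labels.

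In resting cells 12 members were lower and 1, Mitf, was higher by the KO label, and 29 were not called (28.6% lower and 2.38% higher), beside 13% and 12.3% of all genes (25.3% called in all). The lower members were Ctsk, Ctsl, Ctsz, Gusb, Glb1, Smpd1, Arsb, Grn, Npc2, Lamp1, Atp6v1b2 and Atp6v1h. The median was -0.10 beside 0.00 for all genes, and 0 of the 42 were called with a difference over 1 log2 unit, beside 0.597% higher and 2.71% lower of all genes. The libraries of the labels did not overlap for 29 members, beside 48.1% of all genes. Ctsk, Ctsl, Glb1, Gusb, Arsb, Grn and Atp6v1h kept their calls in each of the 21 alternative fits. With totals alone 3 members were higher and 8 lower, beside 26.8% of all genes called, with 61.6% of those calls higher. When only the PBS libraries were fitted 25 members were called, beside 39.7% of all genes. Members called numbered 8, 9 and 18 without KO PBS replicate 1, KO PBS replicate 3 and WT LPS replicate 1. The shares of all genes called were 16.3%, 20.7% and 31.8% there. Without WT LPS replicate 1, Ctsb, Ctsc and Atp6ap1 were also lower and Ctss and Tfeb higher.

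After LPS, members of every class were lower by the KO label. Under LPS, 27 members were lower and 2 higher by the KO label (64.3% and 4.76%), beside 19.3% and 22.1% of all genes (41.4% called in all). The median was -0.31 beside 0.00 for all genes, and the estimate was negative for 37 of the 42. None was called with a difference over 1 log2 unit, beside 1.57% higher and 3.15% lower of all genes. The libraries of the labels did not overlap for 29 members, beside 45.6%. The members lower were 7 of 11 in the cathepsin class, 7 of 8 glycosidases, 5 of 7 lipid hydrolases, sulfatases and activators, 3 of 7 membrane proteins, 4 of 6 V-ATPase subunits and Tfeb. The 2 higher were Mitf and Ctss. Of the 27, 9 were lower under PBS as well and 18 had not been called there, a split that was not counted over all genes. All 27 were called lower under each of the 3 other scalings (RLE, upper quartile and totals alone), which gave 27, 33 and 36 lower members. The median of all genes was -0.001, -0.068 and -0.089 there. Of all genes 41.2%, 41.4% and 42% were called, with 53.1%, 41.6% and 37.9% of those calls higher, against 53.4% with TMM. In every alternative fit 22 kept their calls. The exceptions were Arsa, Neu1 and Cd68 with a correction for GC content, Ctsf without KO LPS replicate 1 and Tfeb in 5 fits. The GC correction also added calls, Asah1, Ctsc, Lamp2, Scarb2, Atp6v1a and Atp6v1h as lower and Tfe3 as higher. Without WT LPS replicate 1, Ctsc, Ctsh, Ctsz and Cd63 were also called lower (log2 difference -0.22, -0.26, -0.14 and -0.33, adjusted p = 0.00104, 0.00127, 0.0223 and 0.0324) and Tfe3 higher (0.24, adjusted p = 0.0012), and Ctss was no longer called (0.12, adjusted p = 0.0593).

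The test of the interaction asked whether the response to LPS itself differed by label. It was called for 15 members, 13 with a more negative and 2 with a more positive response in the KO-labelled libraries (31.0% and 4.76%), beside 8.26% and 9.78% of all genes (18% called in all). The 13 were Ctsa, Ctsd, Lgmn, Gla, Hexa, Gusb, Galc, Psap, Cd68, Mcoln1, Atp6v0d1, Atp6v0d2 and Tfeb, and each of them was also lower by the KO label under LPS. The 2 with the more positive response were Npc2 and Atp6v1h. Ctsd, Lgmn, Galc, Gla, Tfeb and Atp6v1h kept the call in every alternative fit. Without KO LPS replicate 1 these 6 alone were called, without WT PBS replicate 3 these and Mcoln1 (7), and without WT PBS replicate 2 these, Mcoln1, Cd68 and Atp6v0d2 (9). Without WT LPS replicate 1, Ctsh, Scarb2 and Atp6v1b2 were also called more negative and Tfe3 more positive (19 in all). With these libraries left out in the order given, 12.7%, 13%, 13.4% and 21.9% of all genes were called. With totals alone 27 members had a more negative and 1 a more positive response, on a median of all genes of -0.13. Of all genes 21.3% were called there, with 24.4% of those calls more positive, against 54.2% with TMM.

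**Figure D3:**
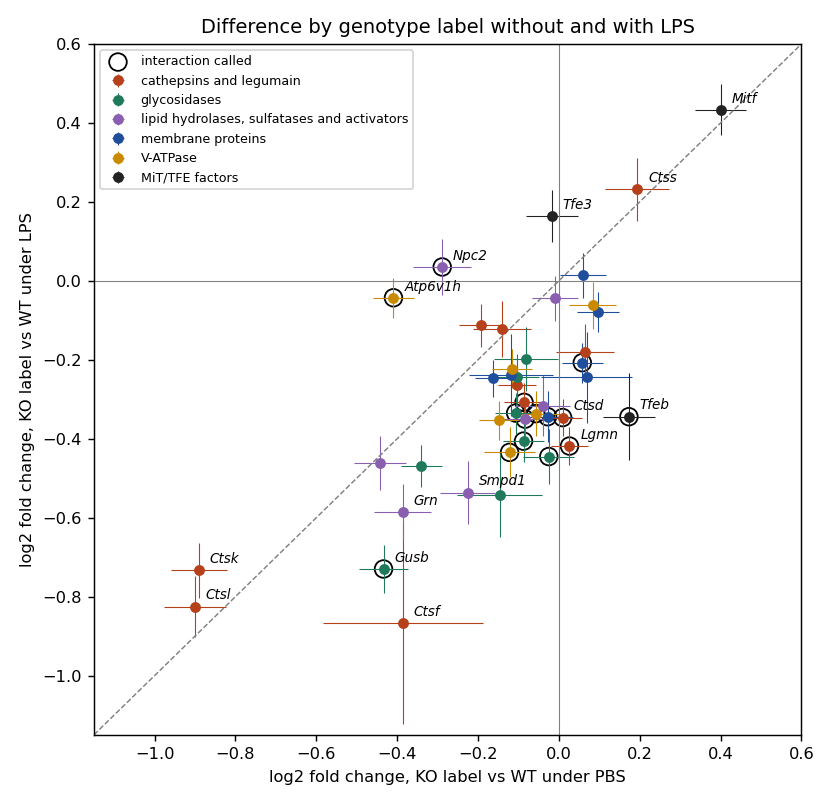
Log2 fold change of the KO label against WT under PBS (horizontal axis) and under LPS (vertical axis) for the 42 genes, coloured by role, with bars of 1 SE and open circles around the 15 genes called in the interaction. Most points lie under the dashed line of equal difference, while Ctsk and Ctsl lie far down near it and Npc2 and Atp6v1h above it.

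Among the cathepsins, the aspartyl protease cathepsin D and the asparaginyl protease legumain fell with LPS and fell further in KO-labelled cells. Ctsd, which encodes cathepsin D, was counted at 22543, 22729 and 22693 CPM in WT PBS, 19003, 19246 and 19191 in WT LPS, 22362, 23266 and 22776 in KO-labelled PBS and 14788, 15383 and 15009 in KO-labelled LPS libraries. The resting libraries of the labels overlapped, and every KO-labelled LPS library lay below every WT LPS library. Ctsd fell by 0.24 on the log2 scale in WT and by 0.60 by the KO label, an interaction of -0.36 ± 0.0663 (SE, adjusted p = 0.00154). Lgmn, the legumain gene, stood at 1768, 1785 and 1771 CPM in WT PBS, 1627, 1583 and 1578 in WT LPS, 1814, 1822 and 1785 in KO-labelled PBS and 1182, 1199.5 and 1200.3 in KO-labelled LPS libraries. Its 3 libraries of a group lay within narrow ranges, and no LPS library reached the PBS levels. The interaction of Lgmn was -0.44 ± 0.0664 (adjusted p = 0.000258), the smallest adjusted p of the 42 for this contrast. Ctsa encodes protective protein, a carboxypeptidase that stabilises β-galactosidase and neuraminidase. It was counted at 2524, 2519 and 2489 CPM in WT PBS, 2539, 2534 and 2552 in WT LPS, 2341, 2446 and 2307 in KO-labelled PBS and 2013, 2106 and 2040.3 in KO-labelled LPS libraries. The 3 WT LPS libraries of Ctsa lay just above the WT PBS libraries, and the KO-labelled LPS libraries lay below all others. Its change with LPS was 0.018 in WT (adjusted p = 0.748) and -0.20 by the KO label (adjusted p = 0.00109), and the interaction of -0.22 (adjusted p = 0.0352) was lost in 9 of 20 alternative fits, with adjusted p up to 0.105.

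Ctsl and Ctsk, cysteine proteases of endosomes and of bone resorption, were lower by the KO label under both treatments. Ctsl was counted at 3262, 3414 and 3277 CPM in WT PBS, 2968, 3767 and 3768 in WT LPS, 1777, 1800.5 and 1757 in KO-labelled PBS and 1935, 2089 and 1905 in KO-labelled LPS libraries. No KO-labelled library overlapped a WT library under the same treatment, although WT LPS replicate 1 lay below its group. The difference by the KO label was -0.90 ± 0.0772 under PBS (adjusted p = 5.57e-07) and -0.83 ± 0.0772 under LPS (adjusted p = 6.85e-07), or 1.87-fold and 1.77-fold lower. Ctsk stood at 181, 192 and 182 CPM in WT PBS, 185, 214 and 224 in WT LPS, 100.5, 103 and 96.2 in KO-labelled PBS and 126, 131 and 118 in KO-labelled LPS libraries. Here too the labels did not overlap under either treatment. Ctsk was lower by 1.85-fold under PBS (adjusted p = 1.80e-07) and by 1.66-fold under LPS (adjusted p = 8.20e-07). For both genes the interaction was not called (0.075 with a 95% interval of -0.15 to 0.30, and 0.16 with -0.05 to 0.36). The fibroblast markers given with the library totals moved the same way by label, and their part in the Ctsk and Ctsl difference was not tested.

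Ctsc, Ctss and Ctsz were the cathepsins that LPS raised most in WT. Ctsc, whose product dipeptidyl peptidase I activates granule serine proteases, was counted at 232, 227 and 223 CPM in WT PBS, 843, 1067 and 1025 in WT LPS, 205, 205 and 208 in KO-labelled PBS and 908, 919.9 and 871 in KO-labelled LPS libraries. Every LPS library lay far above every PBS library under either label. The rise of Ctsc was 4.31-fold in WT and 4.37-fold by the KO label (adjusted p = 6.87e-14 and 5.43e-14), at percentile 91.1 and 90.3 of all genes. Ctss, the protease that trims the invariant chain of MHC class II, stood at 4605, 4945 and 4613 CPM in WT PBS, 4778, 6081 and 6089.7 in WT LPS, 5446, 5479 and 5273 in KO-labelled PBS and 6728, 6914 and 6256 in KO-labelled LPS libraries. WT LPS replicate 1 lay within the WT PBS range, and the KO-labelled libraries lay above every WT library of the same treatment. The rise of Ctss in WT was 0.26 (adjusted p = 0.0069) with TMM and turned to -0.049 and -0.40 with upper-quartile scaling and totals alone. Ctss was higher by the KO label under LPS by 0.23 (adjusted p = 0.0269), a call lost in 7 of 21 alternative fits, both of those scalings and the fit without WT LPS replicate 1 among them (adjusted p up to 0.383). Ctsz, a carboxypeptidase, rose by 0.48 in WT and 0.55 by the KO label with TMM and fell by 0.19 and 0.25 with totals alone. Ctsb, the most counted cysteine cathepsin, stood at 19300.4, 20007 and 19552 CPM in WT PBS, 21089, 21432 and 20992 in WT LPS, 18370.1, 18362 and 18027 in KO-labelled PBS and 17407, 18159.6 and 17304 in KO-labelled LPS libraries. It was lower in every KO-labelled than in every WT library under either treatment, with a log2 difference of -0.26 under LPS (adjusted p = 0.000348) and of -0.10 under PBS, where the test was not passed (adjusted p = 0.125). Ctsh did not pass between labels, and Ctsf, with at least 9 counts in every library, was lower by the KO label under LPS (log2 difference -0.87, adjusted p = 0.0119), a call lost without KO LPS replicate 1 (adjusted p = 0.0743).

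**Figure D4:**
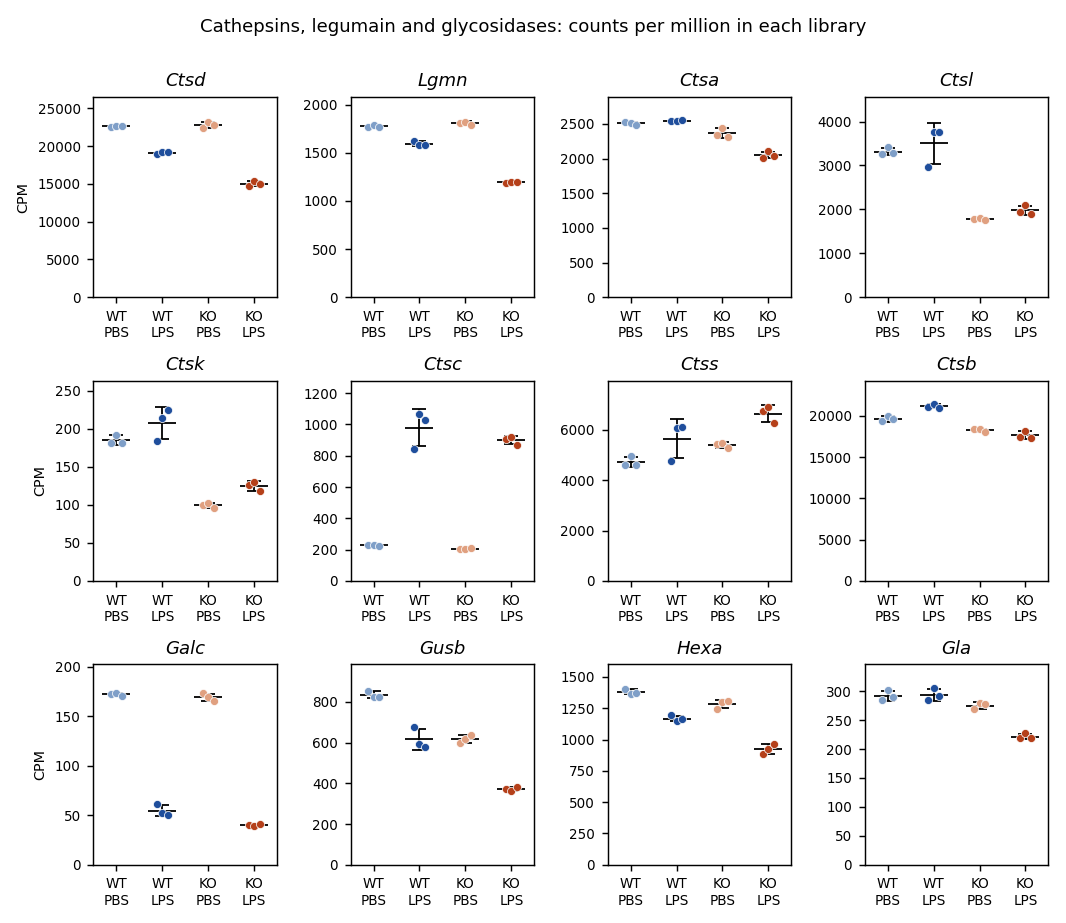
CPM of 8 genes of the cathepsin class and 4 glycosidases in each of the 12 libraries (points), with the group mean and SD as horizontal line and bars, each vertical axis starting at 0. For Ctsd, Lgmn, Galc, Gusb and Hexa the 3 KO-labelled LPS libraries form the lowest group, while Ctsl and Ctsk split by label under both treatments.

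Glycosidases strip sugars from glycoproteins, glycolipids and glycogen, and none of the 8 was called higher under any contrast. In WT 5 fell with LPS and by the KO label 7 did, beside 40.2% and 41.1% of all genes. By the KO label 7 were lower under LPS, beside 19.3% of all genes, Man2b1 being the exception (-0.20, adjusted p = 0.059). Galc, the galactosylceramidase whose loss causes Krabbe disease, was counted at 173, 173 and 170.3 CPM in WT PBS, 61.01, 52.7 and 50.03 in WT LPS, 173, 169 and 166 in KO-labelled PBS and 40.4, 39.1 and 40.7 in KO-labelled LPS libraries. The PBS groups overlapped, whereas the KO-labelled LPS libraries all lay below the WT LPS libraries. Galc fell 3.16-fold in WT and 4.22-fold by the KO label, at percentile 9.78 and 8.35 of all genes, with an interaction of -0.42 ± 0.0935 (adjusted p = 0.00542). Gusb, the β-glucuronidase gene, stood at 854, 822 and 826 CPM in WT PBS, 676, 595 and 578 in WT LPS, 597, 618 and 637 in KO-labelled PBS and 369.9, 363 and 382 in KO-labelled LPS libraries. Its WT LPS and KO-labelled PBS libraries overlapped, and the KO-labelled LPS libraries were lowest. The log2 difference of Gusb by the KO label was -0.43 under PBS (adjusted p = 8.55e-05) and -0.73 under LPS (adjusted p = 2.16e-07). It was the only member lower under PBS whose interaction was also called negative (-0.30, adjusted p = 0.0254).

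Hexa, the α-subunit of β-hexosaminidase, stood at 1403, 1367 and 1374 CPM in WT PBS, 1192, 1147 and 1164 in WT LPS, 1243, 1299.7 and 1304 in KO-labelled PBS and 886, 924 and 968 in KO-labelled LPS libraries. LPS libraries lay below PBS libraries under either label, and furthest by the KO label. The interaction of Hexa was -0.23 (adjusted p = 0.0413) and was lost in 10 of 20 alternative fits, with adjusted p up to 0.117. Gla, the α-galactosidase of Fabry disease, was counted at 285, 302 and 289.7 CPM in WT PBS, 284, 305 and 291 in WT LPS, 269, 279 and 278 in KO-labelled PBS and 219, 227 and 218 in KO-labelled LPS libraries. In WT the LPS and PBS libraries of Gla overlapped fully, and the KO-labelled LPS libraries lay below all others. Its interaction was -0.32 ± 0.0725 (adjusted p = 0.00636), and its promoter holds 2 matches of TCACGTGA. Gaa, the α-glucosidase of glycogen, and Glb1, the β-galactosidase, were lower by the KO label under LPS (log2 difference -0.54 and -0.47, adjusted p = 0.000915 and 3.99e-06). Neu1, the neuraminidase, fell with LPS under both labels (-0.57 and -0.71) and lost its label difference of -0.24 only with the correction for GC content.

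Psap and Grn, precursors that are cut into activators of sphingolipid enzymes and into granulins, were lower by the KO label after LPS, as were Smpd1, Arsa and Arsb. Psap, the most counted member, stood at 27402, 26569.6 and 26965 CPM in WT PBS, 28816, 25830.4 and 26302 in WT LPS, 25158, 25564 and 25654 in KO-labelled PBS and 20774, 20760.5 and 21960.0 in KO-labelled LPS libraries. WT LPS replicate 1 was the highest of all libraries and the 3 KO-labelled LPS libraries were the lowest. The difference by label under LPS was -0.35 ± 0.0538 (adjusted p = 8.91e-05), and the interaction -0.27 (adjusted p = 0.0231). Grn was counted at 3233, 2979 and 2977 CPM in WT PBS, 4617, 3954 and 4056 in WT LPS, 2193, 2372 and 2463 in KO-labelled PBS and 2649.7, 2777 and 2983 in KO-labelled LPS libraries. Its KO-labelled libraries lay below the WT libraries of the same treatment without overlap, with log2 differences of -0.39 under PBS (adjusted p = 0.000826) and -0.59 under LPS (adjusted p = 8.44e-06). Grn rose with LPS under either label with TMM (0.46 and 0.26), but fell by 0.21 and 0.54 with totals alone.

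Npc2, the soluble carrier that hands cholesterol to the membrane protein NPC1, went the other way. It was counted at 1108, 1218 and 1139 CPM in WT PBS, 1971, 2272 and 2318 in WT LPS, 914, 962 and 960.2 in KO-labelled PBS and 2289.7, 2389 and 2044 in KO-labelled LPS libraries. Under PBS the KO-labelled libraries lay below the WT libraries, and under LPS the labels overlapped. Npc2 rose 1.89-fold in WT and 2.37-fold by the KO label, with an interaction of 0.32 ± 0.101 (adjusted p = 0.0367) that was lost in 10 of 20 alternative fits, upper-quartile scaling and totals alone among them (adjusted p up to 0.254). Smpd1, the acid sphingomyelinase, stood at 47.7, 49.7 and 46.4 CPM in WT PBS, 29.1, 24.3 and 27.2 in WT LPS, 40.1, 42.3 and 40.5 in KO-labelled PBS and 16.9, 19.1 and 19.5 in KO-labelled LPS libraries. The 4 groups did not overlap, in the order WT PBS, KO-labelled PBS, WT LPS and KO-labelled LPS from the top. Its log2 difference by the KO label was -0.23 under PBS (adjusted p = 0.0241) and -0.54 under LPS (adjusted p = 6.84e-05), and the call under PBS was lost in 6 of 21 alternative fits. Arsa and Arsb, sulfatases of sulfatide and of dermatan sulfate, were lower by the KO label under LPS (log2 difference -0.32 and -0.46), and Arsb also under PBS (-0.44). Asah1, the acid ceramidase, fell with LPS under both labels (-0.28 and -0.31), with an interaction of -0.034 (95% interval -0.20 to 0.13).

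**Figure D5:**
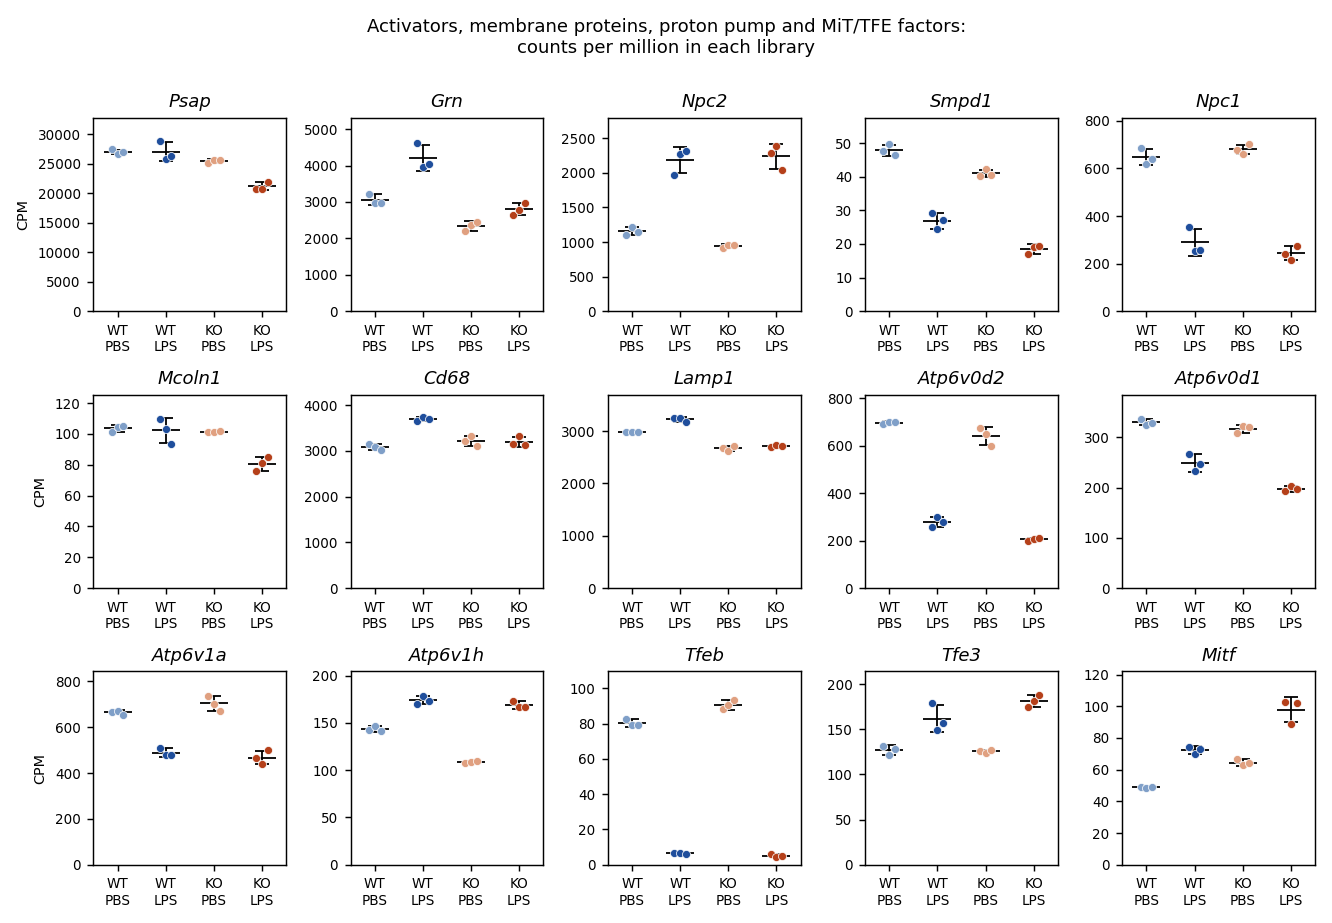
CPM of 15 activators, membrane proteins, V-ATPase subunits and MiT/TFE factors in each of the 12 libraries (points), with the group mean and SD as horizontal line and bars, each vertical axis starting at 0. Tfeb lies near the foot of its axis in the 6 LPS libraries, Mitf is higher by the KO label under both treatments, and Atp6v1h is low in the KO-labelled PBS libraries alone.

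Of the 7 membrane proteins, Lamp1, Cd68 and Mcoln1 were lower by the KO label under LPS. Cd68, the macrophage member of the LAMP family, was counted at 3145, 3085 and 3029 CPM in WT PBS, 3649, 3739.7 and 3698 in WT LPS, 3225, 3315 and 3098 in KO-labelled PBS and 3148, 3326 and 3128 in KO-labelled LPS libraries. Cd68 was higher in the WT LPS libraries than in all 9 others, which overlapped. It rose by 0.26 in WT (adjusted p = 0.000198) and its change by the KO label was -0.0053 (adjusted p = 0.927), an interaction of -0.27 (adjusted p = 0.0179), although the rise in WT turned to -0.050 with upper-quartile scaling and -0.40 with totals alone. Mcoln1, the calcium channel mucolipin TRPML1 through which lysosomes signal to TFEB, stood at 101, 104 and 105 CPM in WT PBS, 109.7, 103 and 93.7 in WT LPS, 101, 101 and 102 in KO-labelled PBS and 75.8, 80.99 and 84.8 in KO-labelled LPS libraries. Its KO-labelled LPS libraries lay below the other 9. The interaction of Mcoln1 was -0.32 ± 0.0896 (adjusted p = 0.0223) and was lost without KO LPS replicate 1 (adjusted p = 0.073). Npc1, the cholesterol exporter of the membrane, fell 2.24-fold in WT and 2.79-fold by the KO label, from 687, 621 and 640.1 to 356, 255 and 258 CPM and from 679, 663 and 701 to 242, 216 and 275 CPM. The LPS libraries lay below the PBS libraries under both labels, and the labels overlapped under LPS (log2 difference -0.24, adjusted p = 0.106).

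Lamp1 and Lamp2 encode the main glycoproteins of the lysosomal membrane. Lamp1 stood at 2977, 2984 and 2992 CPM in WT PBS, 3244, 3255 and 3175 in WT LPS, 2668, 2624 and 2711 in KO-labelled PBS and 2692, 2741 and 2723 in KO-labelled LPS libraries. Its KO-labelled libraries lay below the WT libraries under both treatments, with log2 differences of -0.16 under PBS (adjusted p = 0.0187) and -0.25 under LPS (adjusted p = 0.000546). The former call was lost in 7 of 21 alternative fits. The difference of Lamp2 by label was 0.059 and 0.014 (adjusted p = 0.493 and 0.871), and a correction for GC content turned it to -0.18 and -0.37. Scarb2, which carries β-glucocerebrosidase to the lysosome, and the tetraspanin Cd63 did not pass between labels either. Scarb2 was called lower under LPS with the GC correction (-0.22), with totals alone (-0.17) and with upper-quartile scaling (-0.15), and Cd63 with these 2 scalings and without KO LPS replicate 2 or WT LPS replicate 1.

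The V-ATPase consists of a catalytic sector in the cytoplasm and a proton channel in the membrane, and its 6 members did not move together. Atp6v0d2, the d subunit typical of osteoclasts and macrophages, was counted at 692, 699.6 and 701 CPM in WT PBS, 256, 299.6 and 276 in WT LPS, 673, 651 and 599 in KO-labelled PBS and 200.1, 206 and 209 in KO-labelled LPS libraries. LPS libraries lay well below PBS libraries, and the KO-labelled LPS libraries were lowest. It fell 2.52-fold in WT and 3.13-fold by the KO label, at percentile 13.8 and 12.6, with an interaction of -0.31 (adjusted p = 0.0228). The ubiquitous d subunit Atp6v0d1 stood at 337, 324 and 329 CPM in WT PBS, 268, 233 and 246 in WT LPS, 308, 323 and 321 in KO-labelled PBS and 192, 203 and 197 in KO-labelled LPS libraries. The same order of groups held, over a smaller range, and the interaction was -0.28 (adjusted p = 0.0247). Atp6v1h, a regulatory subunit of the catalytic sector, was counted at 142, 147 and 142 CPM in WT PBS, 169.7, 179 and 174 in WT LPS, 107, 108 and 109 in KO-labelled PBS and 174, 166 and 167 in KO-labelled LPS libraries. Its KO-labelled PBS libraries lay below all others, and the LPS libraries of the labels overlapped. The interaction of Atp6v1h was 0.37 ± 0.0706 (adjusted p = 0.00196).

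Atp6v1a, the catalytic subunit, fell with LPS under both labels (-0.44 and -0.59) and did not pass between labels under LPS (-0.062, adjusted p = 0.429); its promoter holds TCACGTGA. Atp6v1b2 and the accessory subunit Atp6ap1 were lower by the KO label under LPS (log2 difference -0.35 and -0.22, adjusted p = 3.69e-05 and 0.00192). Genes that are not members are given as means ± SD of 3 libraries, and their counts of rises and falls with LPS hold for the TMM scale. Of 12 other V-ATPase subunits tested, 8 rose and 2 fell with LPS in WT, beside 36.5% and 40.2% of all genes. By the KO label under LPS 1 was higher and 4 lower, beside 22.1% and 19.3%. Tcirg1, the a3-type channel subunit of osteoclasts and macrophages, rose from 833 ± 3.52 to 1396 ± 126 CPM in WT and from 721 ± 11.3 to 1586 ± 23.1 CPM by the KO label, an interaction of 0.39 (adjusted p = 0.0044). Atp6v0a1, the a subunit found in most cells, fell by 2.86-fold in WT and 2.97-fold by the KO label, and Atp6v1c1 by 2.33-fold and 2.35-fold. Atp6v1e1 rose by 0.81 on the log2 scale in WT, a change of 0.15 with totals alone.

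The MiT/TFE factors split. Tfeb had the largest change of the 42 genes and was counted at 82.8, 79.2 and 79.1 CPM in WT PBS, 6.71, 6.89 and 6.04 in WT LPS, 88.03, 90.4 and 93.4 in KO-labelled PBS and 5.95, 4.41 and 5.10 in KO-labelled LPS libraries. The LPS libraries lay far below the PBS libraries under either label. Under PBS the KO-labelled libraries lay above the WT libraries, by 0.17 on the log2 scale, without a call (adjusted p = 0.0591). Some alternative fits, RLE scaling and DESeq2 among them, called that difference. Tfeb fell 12.3-fold in WT and 17.6-fold by the KO label (adjusted p = 2.57e-16 and 6.71e-17), at percentile 1.43 and 1.44 of all genes. Its interaction was -0.52 ± 0.128 (adjusted p = 0.0107) and kept its call in every alternative fit, while its difference by label under LPS (-0.34, adjusted p = 0.0201) was lost in 5 of 21, the fits without KO LPS replicate 2 or 3 or WT LPS replicate 2 among them (adjusted p up to 0.3). Mitf was counted at 49.1, 48.4 and 49.002 CPM in WT PBS, 74.6, 69.8 and 73.1 in WT LPS, 66.6, 62.7 and 64.1 in KO-labelled PBS and 103, 88.5 and 102 in KO-labelled LPS libraries. Every KO-labelled library lay above every WT library of the same treatment, by 1.32-fold under PBS (adjusted p = 0.00027) and 1.35-fold under LPS (adjusted p = 6.27e-05). Tfe3 stood at 132, 121 and 128 CPM in WT PBS, 179, 149.7 and 157 in WT LPS, 126, 124 and 127 in KO-labelled PBS and 175, 182 and 188 in KO-labelled LPS libraries. It rose by 0.35 and 0.53 with LPS by TMM, with the labels overlapping under LPS through WT LPS replicate 1 alone. Both Mitf and Tfe3 turned negative in the LPS contrasts with totals alone, at -0.093 and -0.20 for Mitf and -0.31 and -0.27 for Tfe3.

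Tfec, the MiT/TFE gene with the most restricted expression and listed here with the control genes, stood at 17.7, 16.2 and 15.8 CPM in WT PBS, 24.9, 24.4 and 26.5 in WT LPS, 15.2, 16.7 and 14.2 in KO-labelled PBS and 57.01, 54.7 and 55.2 in KO-labelled LPS libraries. The labels overlapped under PBS, and under LPS the KO-labelled libraries lay far above the WT libraries. The rise of Tfec was 1.52-fold in WT and 3.62-fold by the KO label, an interaction of 1.25 ± 0.104 (adjusted p = 1.01e-06). With totals alone its change in WT was -0.055. Of the 18 genes around the MiT/TFE factors (mTORC1, Rag GTPases, Ragulator and folliculin), 5 rose and 9 fell with LPS in WT (36.5% and 40.2% of all genes did), and 3 were higher and 2 lower by the KO label under LPS (22.1% and 19.3% of all genes were). Rragd, a Rag GTPase that MiT/TFE factors are known to induce, fell 13.3-fold in WT, from 32.9 ± 1.92 to 2.47 ± 0.650 CPM, and 15.8-fold by the KO label. Flcn, folliculin, fell 3.97-fold and 4.57-fold. The difference by label under LPS was -0.21 for Rragd (adjusted p = 0.398) and -0.053 for Flcn (adjusted p = 0.697). Mtor rose by 0.59 in WT (adjusted p = 0.00562) with TMM, and its change was -0.080 with totals alone.

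Most other lysosomal hydrolases and cofactors, which were not members, were lower by the KO label after LPS. Of 27 tested, 20 were lower, 2 higher and 5 not called, beside 19.3% lower and 22.1% higher of all genes, with a median of -0.30 beside 0.00. The interaction was more negative for 12 and more positive for 1, beside 8.26% and 9.78% of all genes. Under PBS 7 were lower and 3 higher, beside 13% and 12.3% of all genes. By means over 3 libraries, Sgsh, the sulfamidase of heparan sulfate, fell 10.03-fold with LPS in WT, from 56.7 ± 1.39 to 5.66 ± 1.05 CPM, and 19.6-fold by the KO label, from 72.3 ± 1.35 to 3.68 ± 0.429 CPM (interaction -0.97, adjusted p = 0.0004). Pla2g15, the lysosomal phospholipase A, fell 10.7-fold and 17.1-fold (interaction -0.67, adjusted p = 0.00131). Acp5, the tartrate-resistant acid phosphatase, went the other way, rising 4.22-fold in WT and 7.96-fold by the KO label, from 48.1 ± 3.91 to 383 ± 32.4 CPM (interaction 0.92, adjusted p = 2.62e-05). Ids, the iduronate sulfatase, rose by 0.91 in WT, or 0.25 with totals alone.

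Of 18 other lysosomal membrane proteins and transporters tested, 6 were lower and 1 higher by the KO label under LPS, beside 19.3% and 22.1% of all genes, with a median of -0.06. Tpcn1, an endolysosomal cation channel, fell 8.78-fold in WT and 14.7-fold by the KO label, to 16.9 ± 4.41 and 8.42 ± 0.582 CPM (interaction -0.75, adjusted p = 0.00948). Slc36a1, a proton-coupled amino acid exporter of the lysosome, fell 6.09-fold and 8.71-fold (interaction -0.51, adjusted p = 0.00401). Cd164 and the chloride-proton exchanger Clcn7 rose, by 2.11 and 1.25 in WT and by 2.25 and 1.47 by the KO label. Of 11 genes of mannose phosphate tagging and sorting, 2 were higher and 2 lower by the KO label under LPS, near the shares over all genes. M6pr, a receptor that delivers hydrolases from the Golgi, rose 2.28-fold and 2.36-fold, and the sorting adaptor Gga1 rose by 0.76 in WT, a change of 0.094 with totals alone. The adaptor Gga2 and the receptor Sort1 fell, by 5.42-fold and 1.96-fold in WT and by 7.44-fold and 3.06-fold by the KO label (interactions -0.46 and -0.64, adjusted p = 0.0119 and 0.0256).

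Among 14 autophagy genes, which feed cargo to the lysosome, 5 rose and 8 fell with LPS in WT, beside 36.5% and 40.2% of all genes, and 2 were higher and 1 lower by the KO label under LPS, beside 22.1% and 19.3% of all genes. Sqstm1, the cargo receptor p62, rose from 471 ± 7.66 to 987 ± 99.3 CPM in WT and from 570.00 ± 26.8 to 1622 ± 32.9 CPM by the KO label (interaction 0.44, adjusted p = 0.0038). Atg16l1 rose by 1.36 and 1.21, whereas Atg7 and Wipi1 fell by 2.91-fold and 3.31-fold in WT. Of 6 inhibitors of cathepsins and other proteases tested, 4 rose and 1 fell with LPS in WT, beside 36.5% and 40.2% of all genes. Under LPS 3 of them were lower by the KO label, beside 19.3% of all genes. Cst7, cystatin F, rose from 0.263 ± 0.0399 to 31.8 ± 4.06 CPM in WT. Serpinb9, an inhibitor of granzyme B, rose 5.53-fold in WT and 4.22-fold by the KO label (interaction -0.39, adjusted p = 0.0484), and Serpinb6a was lower by label under both treatments (-0.63 and -0.61).

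Since Ctsk, Atp6v0d2, Tcirg1 and Acp5 are also markers of osteoclasts, 6 further osteoclast genes were read. With LPS in WT 3 rose and 2 fell, near the 36.5% and 40.2% of all genes. Src rose from 2.36 ± 0.305 to 232 ± 43.6 CPM in WT and from 1.31 ± 0.189 to 263 ± 8.70 CPM by the KO label (interaction 1.02, adjusted p = 0.0087). Car2 rose to 6.50 ± 1.02 CPM in WT, while Itgb3 and Nfatc1, the integrin chain and the factor that drives osteoclast genes, fell by 4.52-fold and 3.28-fold in WT and by 4.17-fold and 4.34-fold by the KO label. By label, 4 of the 6 were lower under PBS and 2 under LPS, beside 13% and 19.3% of all genes.

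Read against the promoter sequences, the calls were counted by E-box. Of the 13 members with CACGTG, 12 were lower by the KO label under LPS, and of the 22 with a promoter entry and without CACGTG, 12 were. Under PBS 3 of those 13 and 7 of those 22 were lower, beside 12.9% and 13.0% of all genes tested with and without it. The interaction was more negative for 6 of each, beside 9.57% and 8.45%. Over all genes tested, 19.6% of the 1139 with CACGTG and 19.4% of the 8512 without it were lower under LPS. For TCACGTGA, 5 of the 6 members with it had a more negative interaction (all but Atp6v1a) and 7 of the 29 without it did, beside 10.2% of the 216 genes tested with it and 8.54% of the 9435 without it. Under LPS 5 of those 6 and 19 of those 29 were lower by the KO label, beside 18.1% and 19.5% of all genes tested with and without it. Under PBS 0 of those 6 and 10 of those 29 were lower, beside 9.72% and 13.1%. Of the 78 genes tested with the full CLEAR motif, which include none of the members with an entry, 15.4% were lower and 39.7% higher by the KO label under LPS, beside 19.5% and 22.2% of the 9573 without it. These are counts over few genes that were read with the results known, and no test was made of them.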

How the data were processed

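RNA of 12 libraries, 3 per group, had been sequenced on a BGISEQ-500. The deposited values are expected counts per gene, with decimals in 24.6% to 26.9% of values, which the authors made with Bowtie2 and RSEM 1.3.1 on GRCm38.p6 per the submitters' processing notes, while the paper's methods name STAR and HTSeq. Reads of near-identical genes could thus be split between them, and 14 of the 42 members had decimals in at least 1 library. Expected counts were rounded, genes with low counts were removed by filterByExpr, and libraries were scaled by TMM. Differences were tested, two-sided, with edgeR 4.0.16 (glmQLFit with robust estimation, glmQLFTest, R 4.3.3), with 1 mean per group over all 12 libraries and Benjamini-Hochberg adjustment over 12064 genes. The script was tested on simulated data. The biological coefficient of variation was 6.99%, and 3 counts corresponded to 0.105 to 0.187 CPM, for counting error only. P-values measure the spread between libraries.

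The members and lists were chosen with earlier results of these data known. Up to 4 members per class were named by size and call, at a mean of at least 5 CPM in a group; Ctsl, Ctsk, Ctsb, Ctss, Grn, Mitf and Tfe3, and other members given in passing, were named after their values were seen. Alternatives were 3 scalings, 2 filters (none, or 10 counts in every library), DESeq2 1.42.0, only the groups compared, the replicate number as a block and each library left out. A correction for GC content and a threshold of 1 log2 unit were added after seeing the data. Promoters were read from RefSeq tables; lengths for levels per kilobase came from GENCODE transcripts of the same build.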

Additional observations from a re-analysis of the deposited data

Results flagged for a closer look

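The response to LPS differed between the WT and the KO-labelled libraries, by the interaction term of the edgeR model, for 15 of the 42 genes, beside 18% of all genes tested, and for 6 without KO LPS replicate 1. It was more negative by the KO label for 13, with log2 differences of response of -0.22 for Ctsa, -0.36 for Ctsd, -0.44 for Lgmn, -0.32 for Gla, -0.23 for Hexa, -0.30 for Gusb, -0.42 for Galc, -0.27 for Psap, -0.27 for Cd68, -0.32 for Mcoln1, -0.28 for Atp6v0d1, -0.31 for Atp6v0d2 and -0.52 for Tfeb. It was more positive for Npc2 at 0.32 and Atp6v1h at 0.37. The calls of Ctsa, Hexa and Npc2 were lost in 9, 10 and 10 of 20 alternative fits. Without KO LPS replicate 1 the share of all genes called was 12.7%.

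The same test was passed by 27 of the 112 pathway genes tested that are not members, beside 18% of all genes, and by 12 of the 31 of them named by the rule, which favours large changes. The response was more negative by the KO label for the hydrolases Sgsh at -0.97 and Pla2g15 at -0.67, the membrane proteins Tpcn1 at -0.75 and Slc36a1 at -0.51, the sorting genes Sort1 at -0.64 and Gga2 at -0.46, and Serpinb9 at -0.39. It was more positive for Tfec at 1.25, Src at 1.02, Acp5 at 0.92, Sqstm1 at 0.44 and Tcirg1 at 0.39.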

How the results depend on the processing

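The direction of the smaller LPS changes depended on the scaling, and RNA output per cell was not analysed here. The other genes of the pathway lists were recomputed only where named by the rule. Among the 42 genes and those, with library totals alone, the log2 changes with LPS in WT that turned negative, and were called on either scale, were Ctsa -0.65, Ctsb -0.55, Ctsh -0.49, Ctsk -0.49, Ctsl -0.58, Ctss -0.40, Ctsz -0.19, Gla -0.66, Man2b1 -0.63, Psap -0.66, Grn -0.21, Lamp1 -0.55, Cd63 -0.53, Cd68 -0.40, Scarb2 -0.27, Atp6v1b2 -0.63, Atp6v1h -0.38, Atp6ap1 -0.56, Tfe3 -0.31, Mitf -0.093, Tfec -0.055 and Mtor -0.080, and by the KO label Ctsk -0.48, Ctsl -0.65, Ctss -0.50, Ctsz -0.25, Grn -0.54, Lamp1 -0.77, Lamp2 -0.15, Cd63 -0.79, Scarb2 -0.59, Atp6v1h -0.16, Atp6ap1 -0.80, Tfe3 -0.27 and Mitf -0.20. With upper-quartile scaling they were Ctsa -0.29, Ctsb -0.20, Ctsh -0.14, Ctsk -0.14, Ctsl -0.23, Ctss -0.049, Gla -0.30, Man2b1 -0.28, Psap -0.31, Lamp1 -0.20, Cd68 -0.050, Atp6v1b2 -0.28, Atp6v1h -0.032 and Atp6ap1 -0.20 in WT, and Ctsk -0.031, Ctsl -0.20, Ctss -0.059, Grn -0.098, Lamp1 -0.33, Cd63 -0.35, Scarb2 -0.14 and Atp6ap1 -0.36 by the KO label. The correction for GC content turned Lamp2 between the labels to -0.18 under PBS and -0.37 under LPS. The reversals under the 2 scalings went with a median change of all genes of -0.36 to -0.84, and for Lamp2 the cause was not tested.

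The number of members called was 28 for the interaction with totals alone and 25 for the labels under PBS in a fit to the libraries compared. The shares of all genes called were 21.3% and 39.7% there, against 18% and 25.3% in the main fit. Asking also for a change over 1 on the log2 scale left 5 and 7 members called with LPS in WT and by the KO label, and 0 in each of the 3 contrasts of the labels, where edgeR had called 13, 29 and 15 without it. Leaving out 1 library at a time gave 25 to 31 members with LPS in WT, 32 to 33 by the KO label, 8 to 18 between the labels under PBS, 27 to 33 under LPS and 6 to 19 for the interaction. In that order, the shares of all genes called were 73% to 76.4%, 76.1% to 80.7%, 16.3% to 31.8%, 33.6% to 41% and 12.7% to 21.9%. Other filters, DESeq2 and RLE scaling kept every count within 1.5 times. With the replicate number as a block the counts were 28, 32, 12, 32 and 14 in the order of these 5 contrasts. The shares of all genes there were 76.8%, 79.8%, 24.6%, 41.7% and 17.7%. Over all groups, same-numbered libraries had correlations of -0.26 to 0.25 and other pairs -0.36 to 0.39. Between PBS and LPS libraries of the same label, same-numbered pairs stood at 0.21, 0.22 and -0.037 in WT and 0.039, 0.14 and 0.11 by the KO label. Other pairs there lay at -0.30 to 0.18 and at -0.115 to -0.0062. Whether the numbers pair the samples within a label was not settled. Ctsf, with a lowest count of 9, was the member most limited by depth (SE 0.254 between the labels under LPS) and fell under the filter of 10 counts in every library.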
